A study of Mus musculus with 3 samples.

Results

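The genes described are 32 genes of glycolysis, of the handling of its end product pyruvate and of the pentose phosphate pathway, taken by name from the 32245 gene symbols of a single-cell RNA-seq data set of T cells from mouse MC38 tumours. All 32 were found in the files, and 16 of them reached a mean of 50 CPM in CD8 cells, CPM being the UMIs of a gene per 1000000 UMIs of all genes (a UMI marks 1 captured transcript). MC38 is a mouse colon carcinoma cell line that grows as a tumour in mice. The labels place the harvest on day 15 and give 5 days of treatment before it. Dissociated cells were sorted for CD3, part of the T cell receptor complex, and run on a droplet platform that reads the 3′ end of each transcript. There were 3 libraries, 1 for each group, which the labels call PBS (buffer), mix and homo. All 3 shared the tumour line, the day and the sort. What mix and homo contain, the strain and age of the mice and the number of animals behind a library are not given in the sources used here, and the series title names a LAG3-directed interleukin-2.

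With 1 library per group no difference below has a replicate check, no test was made, and every interval is a 95% interval for counting error only. The PBS, mix and homo libraries held 10351, 8461 and 8528 barcodes with a median of 4748, 4955 and 6582 UMIs, and 9214, 7588 and 7303 cells were kept. In homo 4.07% of barcodes were past the limit on mitochondrial UMIs, against 0.251% in PBS and 0.307% in mix. Pairs of libraries shared 100 to 131 barcode sequences. Cells were gated on UMIs rather than clustered. The CD8 gate (Cd8a or Cd8b1, no Cd4, no Foxp3) held 7117, 5587 and 6517 cells, the Foxp3 gate for regulatory T cells held 842, 807 and 124, and the CD4 gate without Foxp3 held 317, 309 and 70. All 7 T cell markers were detected in the CD8 gate. Markers of tumour epithelium summed to 4.66, 4.92 and 1.74 CPM there, with Krt8 and Krt19 at 0, and those of macrophages to 31.2, 14.5 and 22.3 CPM with 10 of 10 detected. The part of other cells in the member levels was not tested.

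Glycolysis splits glucose into pyruvate and yields ATP and NADH without oxygen. Activated T cells are known for drawing heavily on it and for turning much of the pyruvate into lactate, which regenerates NAD+. The pentose phosphate pathway branches off at glucose 6-phosphate: its oxidative arm makes NADPH and its other arm makes ribose for nucleotides and returns carbon to glycolysis. HIF-1 and MYC are transcription factors known to bind the promoters of many glycolytic genes.

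In the CD8 gate the 32 genes together took 1.06% of UMIs in PBS, 1.19% in mix and 0.728% in homo. The summed level in homo was 1.46-fold below PBS (log2 ratio -0.55, -0.55 to -0.54) and 1.63-fold below mix (-0.71, -0.71 to -0.70), and mix was above PBS by 0.16 on the log2 scale (0.15 to 0.16). The 3 comparisons share libraries, so they are not independent of each other. As sums, the enzymes from glyceraldehyde phosphate to pyruvate, the lactate branch and the upper steps were lower in homo. The sum of the pentose phosphate genes was not. The lower steps of glycolysis summed to 5002, 6212 and 2921 CPM in PBS, mix and homo, a log2 ratio of homo to PBS of -0.78 (-0.79 to -0.77). Genes of pyruvate and lactate summed to 1522, 1433 and 930 CPM (-0.71). The upper steps summed to 3085, 3208 and 2410 CPM (-0.36), and glucose transport and entry to 203, 203 and 166 CPM (-0.29, -0.33 to -0.24). The pentose phosphate genes summed to 772, 755 and 796 CPM, with homo above PBS by 0.05 (0.02 to 0.07) on the log2 scale. The CD8 gate of homo also differed in other measures, with 58.7% of cells carrying a UMI of a cycling list against 33.1% in PBS and 38.1% in mix, a median of 6912 UMIs per cell against 5113 and 5651, and ribosomal protein genes at 27.2% of UMIs against 25% and 24.6%. Over a total without mitochondrial, ribosomal protein and T cell receptor genes the summed ratio of homo to PBS was -0.499. Values within cycling states and at equal depth are given with those cells.

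Of the 16 members that passed the level filter in the CD8 gate, 5 were at least 1.5-fold lower in homo than in PBS and 0 were higher. Among all 2846 genes that passed the same filter, 4.5% were that much lower and 2.6% that much higher. The median log2 ratio of the 16 members was -0.41, against -0.06 over all genes, and 15 of the 16 were below 0, where 59.7% of all genes were. The 5 genes were Tpi1, Gapdh, Eno1, Pkm and Ldha. By step, they were 0 of 2 genes of transport and entry, 1 of 4 of the upper steps, 3 of 5 of the lower steps, 1 of 1 of the lactate branch and 0 of 4 pentose phosphate genes. Between mix and PBS 0 of the 16 were past 1.5-fold in either direction, where 0.492% of all genes were lower and 0.422% higher. Between homo and mix 6 were lower, the same 5 and Pfkp, and 0 higher, against 4.53% and 2.42% of all genes.

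**Figure D1:**
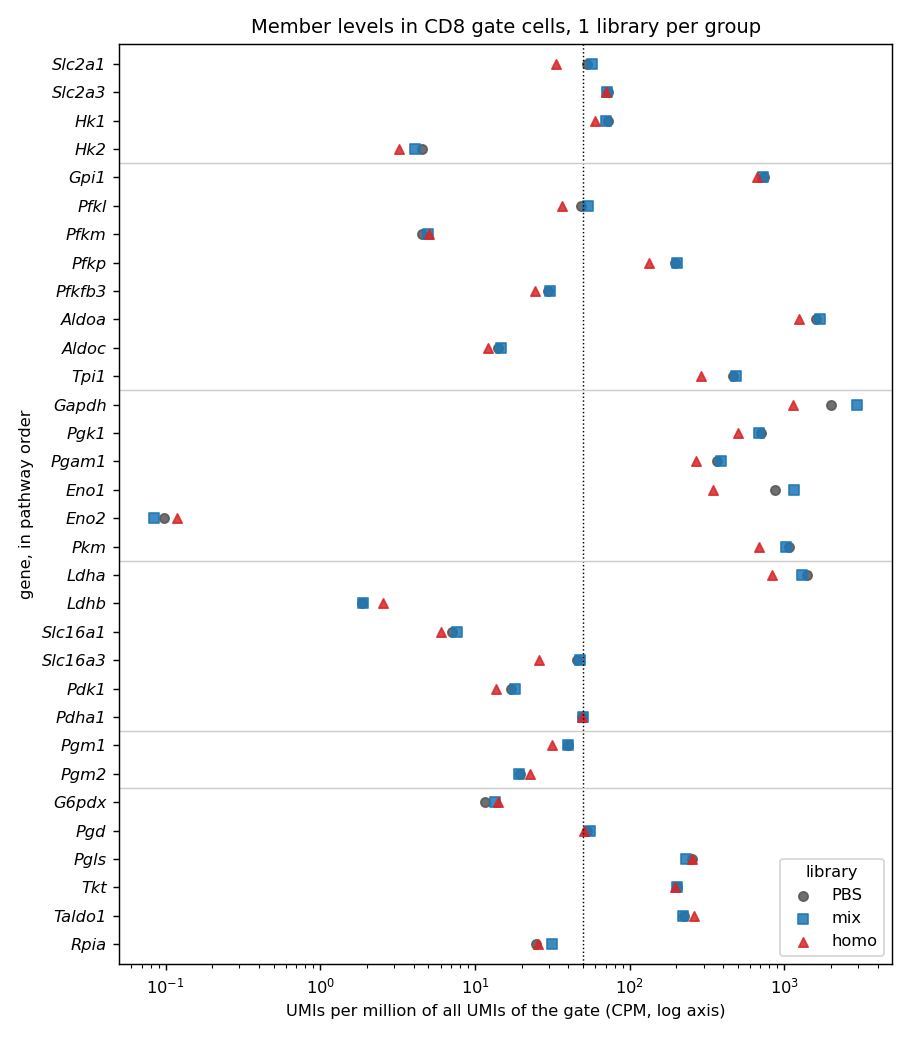
Level of each of the 32 genes in the CD8 gate of the 3 libraries, in CPM on a log axis, grouped by pathway step, with the level filter of 50 CPM as a dotted line. The homo points lie below the PBS points for most genes of glycolysis, as for Eno1 at 345 against 866 CPM, and close to them for the pentose phosphate genes, as for Tkt at 195 against 203 CPM.

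Glucose enters T cells through the transporters Slc2a1 (GLUT1) and Slc2a3 (GLUT3), which the data separate. Slc2a1 was at 53.2, 56.6 and 33.2 CPM in the CD8 gate of PBS, mix and homo, lower in homo than in both others (homo to PBS -0.68, -0.77 to -0.59), with a mean just under the level filter. Slc2a3 was at 72.8, 71.8 and 70.2 CPM, and the interval of its ratio included 0 (-0.05, -0.12 to 0.02). Of the UMIs of both transporters, Slc2a3 therefore took 57.8% (56.4 to 59.1, Clopper-Pearson) in PBS, 55.9% (54.5 to 57.4) in mix and 67.9% (66.6 to 69.2) in homo. Hexokinase traps glucose in the cell as glucose 6-phosphate. Hk1 was at 72.2, 70.2 and 59.4 CPM (-0.28, -0.36 to -0.21), and Hk2 had 186, 146 and 165 UMIs, which is 5.89%, 5.53% and 5.17% of the UMIs of this pair.

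The upper steps carry glucose 6-phosphate to triose phosphates and differed less between libraries than the lower ones. Gpi1, the isomerase at the branch point with the pentose phosphate pathway, was at 735, 730 and 669 CPM (homo to PBS -0.14, -0.16 to -0.11). Among the subunits of phosphofructokinase, which commits sugar to glycolysis, Pfkp was at 195, 203 and 133 CPM (-0.55, -0.59 to -0.50). Its ratio fell just short of the 1.5-fold limit, 0.585 on the log2 scale. Pfkl was at 48.7, 53.4 and 36.4 CPM (-0.42, -0.51 to -0.33). The make-up of the enzyme differed little, with Pfkp at 78.5%, 77.6% and 76.3% of the UMIs of Pfkl, Pfkm and Pfkp. Pfkfb3, which makes the activator fructose 2,6-bisphosphate, was at 29.6, 30.7 and 24.3 CPM (-0.28, -0.40 to -0.17). The aldolase Aldoa, which cleaves the hexose, was at 1596, 1689 and 1241 CPM (-0.36, -0.38 to -0.35). Tpi1 interconverts the triose phosphates and was the upper-step gene with the lowest ratio among those that passed the filter, at 462, 483 and 289 CPM (-0.68, -0.71 to -0.65).

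The lower steps hold the genes with the greatest differences. Gapdh, which oxidises glyceraldehyde 3-phosphate and yields NADH, was at 1993 CPM in PBS, 2959 in mix and 1129 in homo. It was 1.76-fold lower in homo than in PBS (-0.82, -0.84 to -0.80), and 1.48-fold higher in mix than in PBS (0.57, 0.56 to 0.58), just short of the 1.5-fold limit. The 2 ratios together placed mix 2.62-fold above homo. Eno1, the enolase of most tissues, was at 866, 1153 and 345 CPM and had the lowest homo to PBS ratio of the members that passed the filter, 2.51-fold lower (-1.33, -1.35 to -1.30). It too was above PBS in mix, 1.33-fold (0.41, 0.39 to 0.43), and was 3.34-fold lower in homo than in mix. No other glycolytic gene that passed the filter was above PBS in mix by more than 0.09 on the log2 scale. Gapdh made up 18.7%, 24.9% and 15.5% of all member UMIs and Eno1 8.13%, 9.72% and 4.74%. Without Gapdh the summed level of the other 31 genes was -0.49 for homo to PBS and 0.04 for mix to PBS.

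Limits of counting apply to these genes. Gapdh has many processed pseudogenes, and the retrogene Eno1b, close in sequence to Eno1, was counted at 110, 95.5 and 61.7 CPM, so reads of Eno1 and Eno1b cannot be told apart with certainty. The phosphoglycerate kinase Pgk1, which makes ATP, was at 709, 686 and 499 CPM (-0.51, -0.53 to -0.48). The mutase Pgam1 was at 368, 391 and 269 CPM (-0.45). Pkm, whose product makes pyruvate and the last ATP of the pathway, was at 1066, 1022 and 680 CPM (-0.65, -0.67 to -0.63), just past the 1.5-fold limit.

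Ldha turns pyruvate into lactate and was at 1401, 1308 and 833 CPM, lower in homo than in PBS by 0.75 on the log2 scale (-0.77 to -0.73 for the ratio). The lactate exporter Slc16a3 (MCT4) was at 45.7, 47.7 and 25.9 CPM (-0.82, -0.92 to -0.72), under the level filter. The transporter Slc16a1 (MCT1) was at 7.14, 7.65 and 5.98 CPM (-0.26, -0.49 to -0.02), so that Slc16a3 took 86.5%, 86.2% and 81.2% of the UMIs of this pair. Ldhb, the other lactate dehydrogenase subunit, had 76, 67 and 129 UMIs, or 0.132%, 0.144% and 0.303% (0.253 to 0.359) of Ldha and Ldhb together. Its level was under the filter, and its ratio of homo to PBS was above 0 (0.45, 0.03 to 0.88). Entry of pyruvate into the mitochondrial cycle is set by the pyruvate dehydrogenase subunit Pdha1 and by its inhibitory kinase Pdk1. Pdha1 was at 48.8, 49.7 and 48.9 CPM (homo to PBS 0.00, -0.08 to 0.09), and Pdk1 at 17.1, 18.1 and 13.6 CPM (-0.34, -0.49 to -0.18).

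The pentose phosphate genes were near their PBS level in homo. The oxidative arm starts at G6pdx, which was at 11.6, 13.5 and 14.1 CPM (0.28, 0.12 to 0.45). Its next enzymes are the lactonase Pgls, at 254, 232 and 252 CPM, and the dehydrogenase Pgd, at 53.0, 55.4 and 50.9 CPM (-0.06, -0.14 to 0.02). The non-oxidative arm is carried by the transketolase Tkt and the transaldolase Taldo1. Tkt was at 203, 203 and 195 CPM (-0.06, -0.10 to -0.01). Taldo1 was at 225, 220 and 259 CPM, and was the only one of the 16 members that passed the filter whose interval for homo to PBS lay above 0 (0.20, 0.16 to 0.24). Rpia, the isomerase that makes ribose 5-phosphate, was at 24.8, 31.3 and 25.4 CPM. The 16 members under the filter include 5 not yet named. Pgm1, the mutase that links glycogen to glucose 6-phosphate, was at 40.1, 39.8 and 31.6 CPM. The related Pgm2 was at 19.6, 19.3 and 22.8 CPM. Pfkm and the aldolase Aldoc were at 4.57 to 5.06 and 12.1 to 14.7 CPM, and the neuronal enolase Eno2 had 4, 3 and 6 UMIs.

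Promoters of genes from both sides of this divide are shown because HIF-1 is known to bind the letters ACGTG or GCGTG, and MYC the letters CACGTG. The windows run from 250 bases before to 50 bases after a start of the gene, 5′ to 3′ on the gene's strand. They come from RefSeq on GRCm38.p6, and 31 of the 32 members matched that table (Slc2a3 did not). The genes are those with the lowest ratios of homo to PBS among the 16 that passed the filter in the CD8 gate, Eno1 (chr4:150236458-150236757, plus strand), Gapdh (chr6:125165724-125166023, minus strand) and Ldha (chr7:46845554-46845853, plus strand), and Taldo1 (chr7:141391910-141392209, plus strand), whose ratio was above 0. Capitals mark ACGTG or GCGTG on either strand.
Eno1: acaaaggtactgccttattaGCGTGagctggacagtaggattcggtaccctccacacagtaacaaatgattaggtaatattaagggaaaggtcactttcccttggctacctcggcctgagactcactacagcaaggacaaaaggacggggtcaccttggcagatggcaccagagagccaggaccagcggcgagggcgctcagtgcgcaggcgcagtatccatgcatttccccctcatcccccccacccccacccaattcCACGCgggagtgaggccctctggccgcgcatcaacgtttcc
Gapdh: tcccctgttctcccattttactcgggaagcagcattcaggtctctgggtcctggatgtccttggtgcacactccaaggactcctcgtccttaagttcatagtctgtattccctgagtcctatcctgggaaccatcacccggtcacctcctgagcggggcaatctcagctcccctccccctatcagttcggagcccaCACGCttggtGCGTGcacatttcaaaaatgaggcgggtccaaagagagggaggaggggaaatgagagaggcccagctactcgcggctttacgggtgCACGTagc
Ldha: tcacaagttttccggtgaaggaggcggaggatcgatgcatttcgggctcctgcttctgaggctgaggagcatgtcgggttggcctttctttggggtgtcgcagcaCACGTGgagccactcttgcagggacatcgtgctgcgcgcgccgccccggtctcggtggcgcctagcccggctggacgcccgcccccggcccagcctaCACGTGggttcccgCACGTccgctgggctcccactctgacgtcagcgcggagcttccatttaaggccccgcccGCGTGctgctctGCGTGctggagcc
Taldo1: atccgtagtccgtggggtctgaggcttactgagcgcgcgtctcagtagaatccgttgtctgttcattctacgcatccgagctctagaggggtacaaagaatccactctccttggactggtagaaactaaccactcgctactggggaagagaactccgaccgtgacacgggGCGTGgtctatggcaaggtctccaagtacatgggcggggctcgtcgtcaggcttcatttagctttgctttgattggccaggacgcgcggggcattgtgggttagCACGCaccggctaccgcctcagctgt
The Eno1 window shown held 0 ACGTG and 2 GCGTG, the Gapdh window 1 and 2, the Ldha window 5 and 2, and the Taldo1 window 0 and 2. Eno1 has 3 windows and Ldha 2, of which the first listed is shown. The other Ldha window held 0 ACGTG, 2 GCGTG and 0 CACGTG, and the other Eno1 windows 0 ACGTG and 2 GCGTG each. A CACGTG, of which the Ldha window shown had 2, holds ACGTG once on each strand. Counting both strands, ACGTG was in 20 of 45 member windows (44.4%) and in 19.6% of all 32851 windows, GCGTG in 57.8% and 32.4%, and CACGTG in 4 of 45 (8.89%) and 7.15%. By gene, 28 of 31 members (90.3%) and 46.7% of all genes had either ACGTG or GCGTG. A gene counted if any of its windows had a match, with 45 windows for 31 members and 32851 windows for 27025 genes. Both motifs contain a CG pair, and the CG content of the windows was not compared, so these shares are not a like-for-like comparison. GCGTG was also in Taldo1, whose level was not lower, and a match describes a sequence and not a bound site. The motifs and windows were chosen after the values were seen.

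In the Foxp3 gate the members together took 1.07%, 1.07% and 0.695% of UMIs in PBS, mix and homo (homo to PBS -0.62, -0.67 to -0.57, and mix to PBS 0.00, -0.02 to 0.03). The homo library has only 124 cells here. Of 20 members that passed the filter in this gate 11 were at least 1.5-fold lower in homo than in PBS and 0 higher, against 6.75% of all genes lower and 5.84% higher, with a median of -0.64 against 0.00 over all genes. The 11 were Slc2a1, Hk1, Pfkp, Tpi1, Gapdh, Pgk1, Pgam1, Eno1, Pkm, Ldha and Slc16a3. Gapdh was at 1783, 2529 and 857 CPM (homo to PBS -1.06, -1.20 to -0.91), and Eno1 at 582, 686 and 268 CPM (-1.12, -1.39 to -0.86). Both were above PBS in mix, by 0.50 (0.46 to 0.55) and 0.24 (0.15 to 0.33), so the order of the libraries for these 2 genes was that of the CD8 gate. Tpi1 was at 506, 407 and 226 CPM (homo to PBS -1.16, -1.46 to -0.88). Pgk1 was at 501, 439 and 253 CPM (-0.99, -1.27 to -0.72), and Slc16a3 at 131, 98.7 and 75.3 CPM (-0.80). The pentose phosphate genes summed to 724, 724 and 776 CPM, an interval that includes 0 (0.10, -0.06 to 0.26), and of the 4 that passed the filter Tkt alone, at 199, 193 and 272 CPM, had an interval above 0 (0.45, 0.17 to 0.73). The transporters parted here too: Slc2a1 was at 59.5, 59.2 and 37.6 CPM (-0.66, -1.45 to 0.04), while Slc2a3, under the filter with 130, 92 and 33 UMIs, was at 39.1, 27.1 and 69.0 CPM (0.82, 0.22 to 1.38). Between mix and PBS 0 of 20 were past the limit, where 0.242% of all genes were lower and 0.303% higher, and 7 were lower in homo than in mix, against 5.93%, with 0 higher against 4.84%. Macrophage markers in this gate summed to 72.1, 58.9 and 10.5 CPM and dendritic cell markers to 919, 1182 and 556 CPM. Without cells carrying 2 or more macrophage, dendritic or B cell genes 7 members were lower in homo than in PBS, a count given without the share over all genes at that setting.

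**Figure D2:**
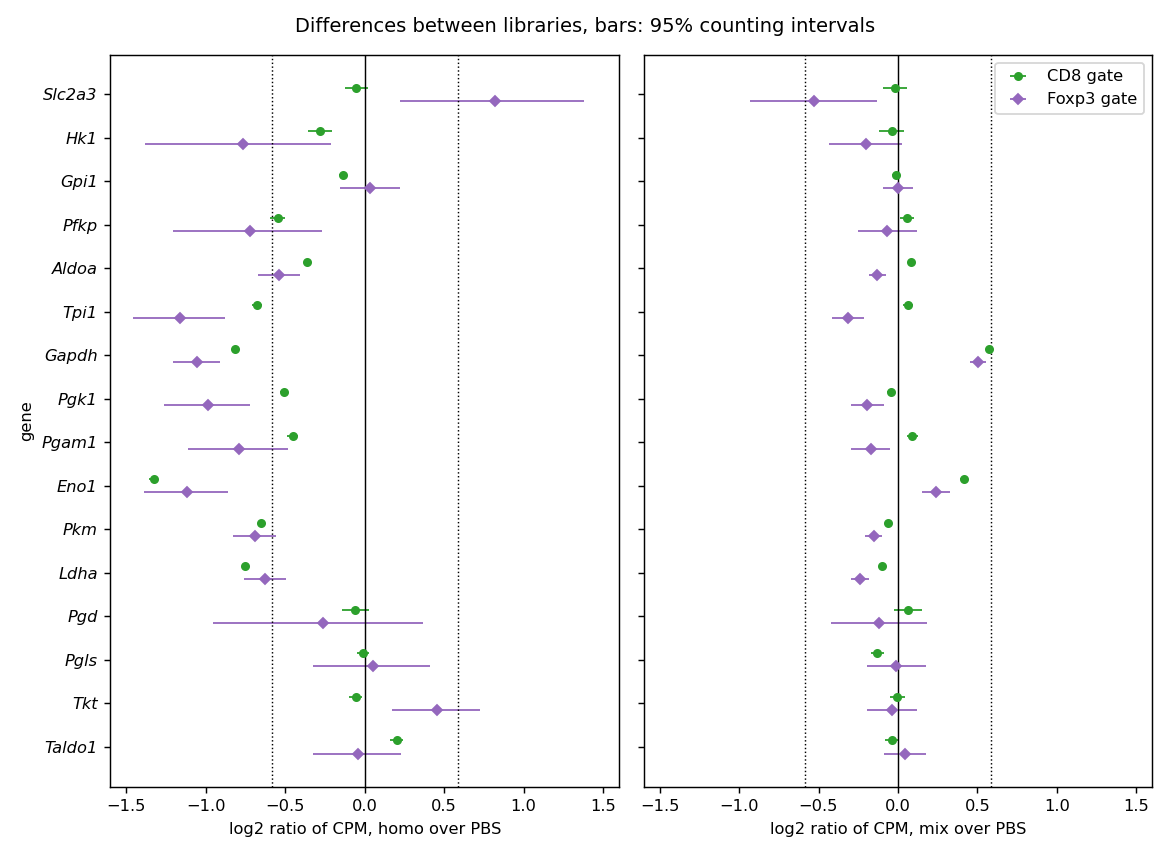
Log2 ratio of CPM of homo to PBS (left) and of mix to PBS (right) for the 16 genes that passed the filter in the CD8 gate, in the CD8 and the Foxp3 gate, with 95% counting intervals and dotted lines at 1.5-fold; Slc2a3 did not pass the filter in the Foxp3 gate. Gapdh and Eno1 lie to the left of the dotted line in the homo panel in both gates and to the right of 0 in the mix panel.

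In the CD4 gate, the smallest, the members took 0.801%, 0.812% and 0.71% of UMIs and the difference between homo and PBS was smaller (-0.18, -0.25 to -0.10). Of 17 members that passed the filter 2 were lower in homo, Gapdh and Eno1, against 11.9% of all genes, so their share was near the background, and 0 were higher, against 6.85%. The same 2 genes were lower in homo than in mix, against 10.4% of all genes, and 0 were higher, against 7.77%. Gapdh was at 1359, 1821 and 892 CPM (-0.61, -0.81 to -0.41), and Eno1 at 476, 607 and 290 CPM (-0.72, -1.08 to -0.37). These 2 genes again had their highest level in mix and their lowest in homo. Pkm was at 1058, 853 and 725 CPM (-0.55), and Ldha at 1240, 1129 and 1092 CPM (-0.18). Pgk1 went the other way at 319, 315 and 424 CPM (0.41, 0.09 to 0.73), with 70 cells in homo. Dendritic cell markers in this gate summed to 1980, 606 and 254 CPM and macrophage markers to 53.5, 16.8 and 10.9 CPM. Without cells carrying 2 or more macrophage, dendritic or B cell genes 4 members were lower in homo than in PBS. The share over all genes at that setting is not given, so this count is not set against a background. Between mix and PBS 0 of 17 were past the limit, against 1.99% of all genes lower and 1.68% higher.

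Members were also compared between the gates of the same library. Pkm and Slc16a3 were at least 1.5-fold higher in the Foxp3 than in the CD8 gate in all 3 libraries, Pkm by 0.69, 0.60 and 0.65 and Slc16a3 by 1.52, 1.05 and 1.54 on the log2 scale in PBS, mix and homo. They were 2 of 19 members higher in each library, where 20.1%, 20% and 25% of all genes were, so the share of members was below that of all genes. In PBS, mix and homo 2, 4 and 2 of 19 members were lower in the Foxp3 gate, against 8.95%, 8.83% and 9.54% of all genes. In PBS and homo that share was near the one over all genes. Pgls was among them in all 3, with ratios of -0.81, -0.69 and -0.74, and Slc2a3 in PBS and mix, with -0.90 and -1.41, but not in homo (-0.03). The members as a whole differed little between the Foxp3 and CD8 gates, at 0.01, -0.15 and -0.07. For the CD4 over the CD8 gate the summed ratios were -0.41, -0.55 and -0.04. There 5, 8 and 1 of 18 members were lower, against 6.73%, 7.13% and 7.81% of all genes. In the same comparison 1, 0 and 1 were higher, against 18.2%, 15.4% and 20.1%.

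Since the gates mix cells in different states, the CD8 gate was divided by UMIs of a 10-gene cycling list and, separately, by Tcf7, a marker of stem-like T cells, and Havcr2 (TIM-3), a marker of exhausted and effector T cells. A cell with more UMIs is more likely to carry one of a marker, so these states depend on depth. Cycling cells numbered 2355, 2128 and 3824, and the members took 1.16%, 1.29% and 0.758% of their UMIs, against 0.987%, 1.09% and 0.655% in the other cells. Homo was thus below PBS among cells of both kinds (-0.62, -0.63 to -0.61, and -0.59, -0.60 to -0.58). In cycling cells 7 of 16 members were at least 1.5-fold lower, against 5.64% of all genes, and in the others 5 of 17, against 4.88%. Eno1 was at 958, 1257 and 364 CPM in cycling cells and at 794, 1054 and 298 CPM in the others. Cycling over other cells of the same library gave 0.24, 0.24 and 0.21 for all members, with 0 members past 1.5-fold, where 3.21%, 2.96% and 3.46% of all genes were higher.

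The summed ratio of homo to PBS lay farther from 0 in Havcr2 cells than in Tcf7 cells, a difference that was not tested. CD8 gate cells with Havcr2 and no Tcf7 numbered 3099, 2476 and 3201, and the members took 1.26%, 1.38% and 0.791% of their UMIs (homo to PBS -0.68, -0.68 to -0.67). Cells with Tcf7 and no Havcr2 numbered 689, 631 and 698, with 0.613%, 0.599% and 0.51% (-0.27, -0.29 to -0.24). In the Havcr2 cells 9 of 19 members were lower in homo, against 5.36% of all genes, namely Slc2a1, Pfkp, Tpi1, Gapdh, Pgk1, Eno1, Pkm, Ldha and Slc16a3. In the Tcf7 cells it was 1 of 15, Eno1, against 6.25%. Eno1 was at 1049, 1368 and 382 CPM in Havcr2 cells (-1.46) and at 423, 496 and 220 CPM in Tcf7 cells (-0.94), so it was lowest in homo in both. Pgk1 was at 903, 838 and 555 CPM in Havcr2 cells (-0.70) but at 273, 229 and 283 CPM in Tcf7 cells. Slc2a3 in Tcf7 cells was at 21.8, 18.8 and 42.0 CPM, from 78, 61 and 179 UMIs (0.95). Tkt in Havcr2 cells was at 209, 207 and 209 CPM.

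Seen within a library, Havcr2 cells held more of the members than Tcf7 cells, with log2 ratios of 1.04 (1.02 to 1.06) for PBS, 1.20 for mix and 0.63 (0.61 to 0.65) for homo, so the gap was smallest in homo. The median over all genes was 0.05, 0.04 and 0.03. Of 17 members 13, 12 and 9 were at least 1.5-fold higher in Havcr2 cells, against 13.5%, 13.5% and 7.46% of all genes. Slc2a3 was higher by 2.08, 2.30 and 0.89 and Pgk1 by 1.72, 1.87 and 0.97. Slc16a3, which did not pass the filter here, was higher by 2.17, 3.47 (2.82 to 4.21) and 1.38. It had only 51, 19 and 53 UMIs in the Tcf7 cells. Tkt differed by -0.07, 0.15 and 0.16, and Taldo1 by 0.12, 0.23 and 0.26.

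**Figure D3:**
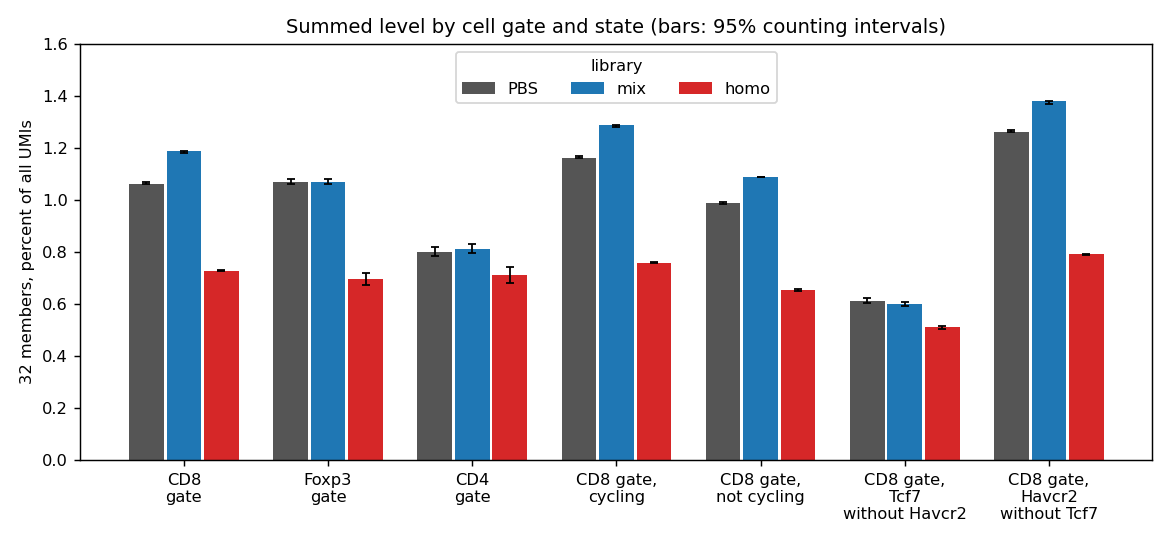
Summed UMIs of the 32 genes as a percent of all UMIs, in the 3 gates and in 4 states of the CD8 gate, with 1 bar per library from 0. Homo has the shortest bar in each, and the gap is narrowest in the CD4 gate and in Tcf7 cells, where the homo bar stands at 0.51% against 0.613% in PBS.

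A sum over cells cannot tell fewer expressing cells from less RNA in each, so member UMIs were also counted per cell after each cell was thinned to 2000 UMIs. In the CD8 gate the median cell of PBS had 16 member UMIs (quartiles 11 to 25), that of mix 19 (quartiles 12 to 29) and that of homo 12 (quartiles 9 to 17). The 90th percentile was at 36, 40 and 23, farther apart than the medians. Before thinning, the median cell gave 0.799%, 0.924% and 0.598% of its UMIs to the members. In the Foxp3 gate the medians were 17, 17 and 12, and in the CD4 gate 12, 12 and 10.5. Cells under 2000 UMIs were left out, 334, 299 and 403 in the CD8 gate.

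**Figure D4:**
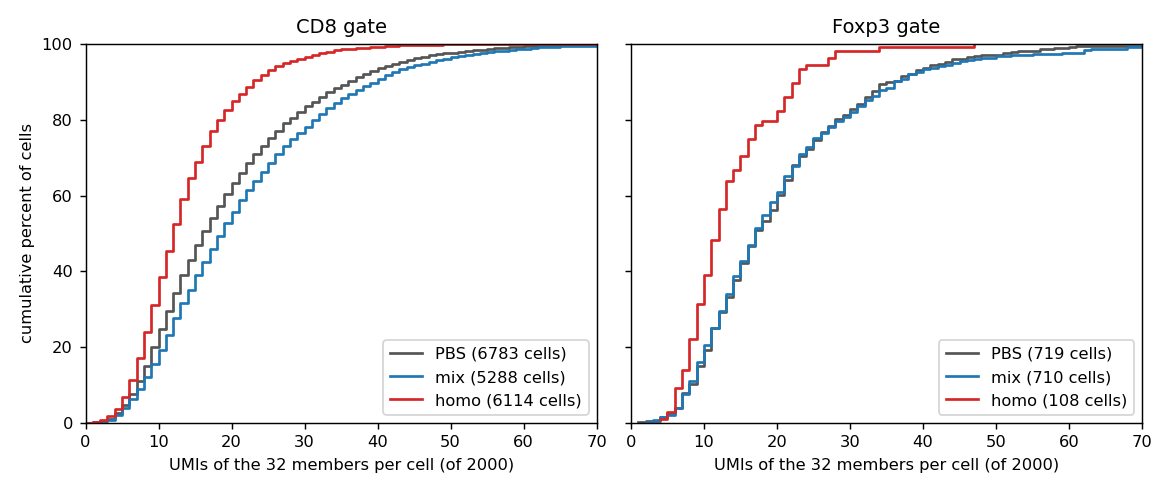
Cumulative percent of cells by the number of member UMIs among 2000 UMIs drawn per cell, in the CD8 gate (left) and the Foxp3 gate (right), 1 line per library. The homo line lies to the left of the PBS and mix lines over most of its course, with medians of 12, 16 and 19 member UMIs in the CD8 gate of homo, PBS and mix.

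Neighbouring pathways were read from lists of named genes in the CD8 gate, where between homo and PBS 4.5% of all genes were at least 1.5-fold lower and 2.6% higher. The lists were chosen with earlier results of these data known, so a count above these shares is a description and not an independent check. Of the tricarboxylic acid cycle, which burns pyruvate carbon in mitochondria, 0 of 11 genes that passed the filter of 23 listed were past 1.5-fold between homo and PBS, with a median of 0.01, Idh3b at 0.34 and Ogdh at 0.25. Of the respiratory chain, 1 of 24 that passed of 25 was lower, the electron carrier Cycs at 269, 268 and 166 CPM (-0.70), and the median was 0.02. Other genes linked to hypoxia had a median close to that of the members, with 5 of 11 that passed of 30 lower, 0 higher and a median of -0.42. Among these were the cytokine Mif at 987, 958 and 592 CPM (-0.74), the mitophagy gene Bnip3 at 68.0, 66.4 and 40.0 CPM (-0.76) and the transcription factors Bhlhe40 at 529, 466 and 271 CPM (-0.97) and Klf6 at 449, 414 and 205 CPM (-1.13). The other was Nrn1 at 88.5, 53.1 and 50.6 CPM (-0.81), and it was also the only gene of these lists past the limit between mix and PBS (-0.74).

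Of the regulators of T cell metabolism 3 of 16 that passed of 36 were lower in homo and 0 higher, against the same 4.5% and 2.6% of all genes, with a median of -0.23. Myc, known to drive growth and glycolytic genes, was at 62.1, 83.4 and 30.2 CPM (homo to PBS -1.04, -1.14 to -0.95). Mix was above PBS by 0.425 on the log2 scale. The order of libraries was that of Gapdh and Eno1, and of other members such as Aldoa and Tpi1. It was not that of Pkm, Ldha and Pgk1, which were highest in PBS. Of the 16 members that passed the filter, 7 were above 0 and 9 below 0 for mix to PBS. Whether Myc bears on the level of the members was not tested. The amino acid transporter genes Slc3a2 at 142, 136 and 92.7 CPM (-0.62) and Slc1a5 at 183, 182 and 122 CPM (-0.59) were the others. Hif1a was at 369, 325 and 248 CPM, just short of the limit (-0.57). Proliferation genes had the opposite sign, with 5 of 15 that passed of 30 higher in homo, 0 lower and a median of 0.16. They were Ccnb2 at 38.0, 38.6 and 84.6 CPM (1.16), Ube2c (1.04), Hmgb2 (0.74), Birc5 (0.69) and Mki67 (0.62). Among further genes of sugar metabolism 1 of 6 that passed of 58 was lower, Eno1b. From a list of state genes, the activation marker Tnfrsf9 (-1.51), the granzyme Gzmb (-1.11) and Klf2 (-1.80), a factor of resting T cells, were lower in homo. Counts and a median of that list, and any genes of it that were higher, are not given. These genes therefore do not describe it as a whole, and no state of activation is read from them.

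**Figure D5:**
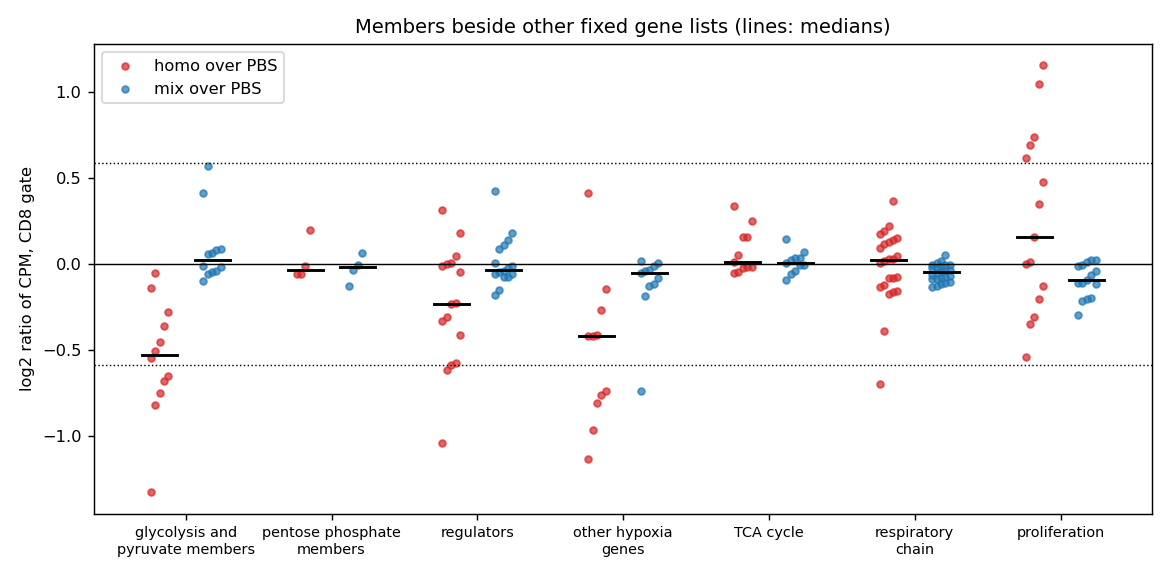
Log2 ratio of CPM in the CD8 gate of homo to PBS and of mix to PBS for each gene that passed the filter in 7 lists, with 1 point per gene and a line at each median. In the homo comparison the glycolysis and hypoxia points lie mostly below 0, at a median of -0.42 for the hypoxia list, and the pentose phosphate, tricarboxylic acid cycle and respiratory chain points lie around 0.

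In the Foxp3 gate, where 6.75% of all genes were lower and 5.84% higher in homo than in PBS, the hypoxia list had 8 of 14 lower and 0 higher, with a median of -0.62, including Bnip3 (-1.28), the oxidoreductase Ero1l (-1.48) and Klf6 (-0.92). The respiratory chain had 0 of 24 past the limit (median -0.05) and the tricarboxylic acid cycle 1 of 10 lower (median -0.06). Regulators had 1 lower and 1 higher of 16, near the share over all genes, the latter Mxd4 (0.80), known as an antagonist of MYC, and Hif1a was at -0.17. Proliferation genes had 1 higher and 2 lower of 11 and a median of -0.10, where the CD8 gate had 5 higher and 0 lower.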

How the data were processed

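Single-cell RNA-seq of CD3-sorted MC38 tumour cells was deposited as 3 matrices of raw UMI counts, and per the file headers the authors used Cell Ranger 7.1.0. Seurat 4.1.0, mm39 and an older Cell Ranger, 2.1.1, stand in the submitters' processing notes. The files hold whole-number counts per gene and barcode, not normalized. The members and gene lists were chosen with earlier results of these data known.

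Cells needed at least 500 genes, 1000 UMIs, under 10% mitochondrial UMIs and 1 UMI of Cd3d, Cd3e or Cd3g. The highest Scrublet scores were removed at 0.8% per 1000 barcodes (803, 527 and 485 barcodes), since its own threshold marked 1, 0 and 0. UMIs were summed per library and gate and divided by the gate's total (41175636, 35540626 and 51010250 UMIs in the CD8 gate of PBS, mix and homo) to give CPM. These are 3′ UMI counts and were not divided by length, so levels of different genes are not compared. Aldoa has 2 gene identifiers, which were summed. Genes with a mean of at least 50 CPM over the 3 libraries of a gate were counted as higher or lower past 1.5-fold. Ratios carry exact conditional binomial 95% intervals and shares Clopper-Pearson intervals, and both cover counting error only. Every member is reported: those over the filter by their level in each library, the rest by level or UMIs. The script was tested on simulated counts. Tools were Python 3.11.15, numpy 2.4.6, scipy 1.17.1, pandas 2.3.3, scanpy 1.11.5 and matplotlib 3.10.9. Alternatives covered the mitochondrial limit, the gates, the scaling, the depth, cycling cells, cells with macrophage, dendritic or B cell genes, Gapdh, the filter and the fold.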

Additional observations from a re-analysis of the deposited data

Results flagged for a closer look

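Some members differed in opposite directions in different gates, each with a counting interval clear of 0. These differences between gates were not tested, there is 1 library per group, and the homo library holds 124 cells in the Foxp3 gate and 70 in the CD4 gate. Between homo and PBS, Pgk1 had a log2 ratio of -0.508 in the CD8 gate, -0.987 in the Foxp3 gate and 0.412 in the CD4 gate. Gpi1 had -0.137 in the CD8 gate and 0.318 in the CD4 gate, and Tkt -0.056 in the CD8 gate and 0.453 in the Foxp3 gate. Between homo and mix, which share the homo library with the above, Pgk1 had -0.461, -0.794 and 0.43 in the CD8, Foxp3 and CD4 gates, Gpi1 -0.126 in the CD8 and 0.401 in the CD4 gate, and Tkt -0.052 in the CD8 and 0.492 in the Foxp3 gate. The median over all genes in the CD8 gate was -0.056 for homo to PBS and -0.051 for homo to mix, close to the values of Tkt. With median-of-ratios scaling Tkt was at -0.0 and -0.002 there, so its sign in the CD8 gate depends on the scaling. Between mix and PBS, Tpi1 had 0.062 in the CD8 gate, -0.315 in the Foxp3 gate and -0.395 in the CD4 gate. Aldoa had 0.082 in the CD8 gate and -0.129 in the Foxp3 gate, and Pgam1 0.09 and -0.172.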

How the results depend on the processing

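No paired analysis was possible because each group has 1 library. By point value the summed member level of homo stayed below PBS and below mix in each gate under every alternative run. In the CD4 gate without Gapdh the interval of homo to mix included 0. The cause of each shift was not tested. For homo to PBS in the CD8 gate the log2 ratio was -0.499 over a total without mitochondrial, ribosomal and T cell receptor genes, -0.492 with median-of-ratios scaling, -0.496 as a mean over cells, -0.503 thinned, -0.619 in cells of 3000 to 10000 UMIs, -0.591 without cycling cells and -0.492 without Gapdh. In that order homo to mix was -0.650, -0.655, -0.664, -0.662, -0.731, -0.734 and -0.535. The 5 members lower in homo than in PBS became 1 at 2-fold, the 6 lower than in mix became 2, and over all alternatives they ranged from 1 to 7 and from 2 to 8. Counts under the alternatives, in every gate, are given without the share over all genes and are not set against a background. For mix to PBS in the CD8 gate the values that moved were 0.151 over the reduced total, 0.168 as a mean over cells, 0.112 by depth, 0.143 without cycling cells, 0.164 without cells carrying macrophage, dendritic or B cell genes and 0.043 without Gapdh.

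In the Foxp3 gate homo to PBS was -0.676 with 2 UMIs required, -0.494 as a mean over cells, -0.496 without cycling cells, -0.503 without cells carrying macrophage, dendritic or B cell genes and -0.548 without Gapdh, and its 11 lower members ranged from 3 at 2-fold to 13, and its 0 higher members from 0 to 5, the most with no filter. Homo to mix was -0.542 as a mean over cells, -0.527 without cells carrying those genes and -0.427 without Gapdh. The sign of mix to PBS in this gate depended on the setting, at -0.048 with 2 UMIs, 0.048 as a mean over cells, 0.028 thinned, 0.098 without cycling cells and -0.121 without Gapdh. In the CD4 gate homo to PBS was -0.375 with 2 UMIs and -0.100 without Gapdh, with 0 to 4 lower members against 2 and 0 to 4 higher against 0. Homo to mix was -0.108 without cycling cells and -0.021 (-0.099 to 0.055) without Gapdh. Mix to PBS was -0.127 with 2 UMIs, -0.031 without cycling cells, -0.091 without cells carrying macrophage, dendritic or B cell genes and -0.079 without Gapdh. Of 600 values of single members 494 moved by less than their counting interval. The sign turned in 15, and in 3 of these the interval of the main value had been clear of 0: Tkt for homo to mix to 0.003 over the reduced total and 0.004 thinned, and Tpi1 for mix to PBS to -0.005 in cells of 3000 to 10000 UMIs, all in the CD8 gate.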
